A study of Oryza sativa with 30 samples.

Results

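The glutathione S-transferase genes of rice were taken as every gene whose deposited description names a glutathione S-transferase or whose symbol begins with OsGST, apart from OsGSTU36, which was left out. This gave 111 of the 38978 genes listed for 20 of the leaf RNA libraries, and 105 of them were among the 40718 genes listed for the other 10. By symbol or description, 56 belonged to the tau class and 30 to the phi class, the plant classes best known for conjugating herbicides and other foreign compounds. There were also 4 zeta genes, 4 dehydroascorbate reductase (DHAR) genes, 3 lambda genes, 3 gamma subunits of elongation factor 1B and 1 gene each of the theta, tetrachlorohydroquinone dehalogenase-like (TCHQD) and microsomal classes. The remaining 8 matched none of these classes by symbol or description. They include the glutamyl-tRNA synthetase OsERS1 and Os01g0950200, which overlaps the tau gene OsGSTU42 on the opposite strand.

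Glutathione S-transferases join the tripeptide glutathione to reactive or foreign molecules, which marks them for export to the vacuole, and several also act as peroxidases or carry flavonoids and other ligands. Zeta enzymes work in tyrosine breakdown, lambda enzymes are thiol transferases, and dehydroascorbate reductases use glutathione to regenerate ascorbate. Tau and phi transcripts are widely used as markers of oxidative, chemical and hormone treatment in leaves.

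The study sequenced leaf RNA from 14-day-old Oryza sativa seedlings raised on 0.5-strength Murashige and Skoog medium at 26 °C under 13 h of light and 11 h of dark. In one set of 20 libraries, treated seedlings received 70 Gy of gamma rays at 1 Gy per minute and were sampled after 6 h (3 libraries labelled ATM, 3 labelled atm-1, 1 labelled atr) or were held at 4 °C for 24 h (1 ATM and 1 atm-1 library), and were set against untreated controls (3 ATM, 3 atm-1, 1 atr). Untreated leaves labelled top6a3 (3 libraries) were set against 1 library labelled TOP6A3. In a separately scaled set, leaves were sampled 6 h after 40 Gy (2 libraries labelled ku70, 2 of the wild type DJ, 1 labelled TOP6A3-OE1 atm-2 and 1 labelled TOP6A3-OE1), and 2 untreated ku70 and 2 untreated DJ libraries served as controls. ATM and ATR are kinases that respond to DNA damage, KU70 binds broken DNA ends and TOP6A3 is a subunit of topoisomerase VI. By the labels, DJ, ATM and TOP6A3 are wild types, atm-1, atr, top6a3 and ku70 are mutants, TOP6A3-OE1 overexpresses TOP6A3, and TOP6A3-OE1 atm-2 adds a mutation of ATM. The labels do not give the kind of mutation or the promoter of the overexpressor, and they do not say whether replicates came from separate plants, so the p-values measure the spread between libraries.

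Between 10364355 and 16477147 reads per library could be recovered from the deposited FPKM values (reads scaled to gene length and library size). The TOP6A3 transcript stood at 4.03, 3.57 and 3.84 FPKM in the libraries labelled top6a3 against 1899 FPKM in the library labelled TOP6A3, while the library labelled TOP6A3-OE1 held 4.49 FPKM. The KU70 transcript was at 24.7 and 37.8 FPKM in the untreated libraries labelled ku70, against 5.31 and 0.319 FPKM in the untreated DJ libraries, so the groups are called by their labels throughout. Genes seen with only 1 to 10 reads were scarce in atm-1 control replicate 1 (1.53% of detected genes) and in ATM 70 Gy replicate 3 (1.70%), while the rest of those 20 libraries had 10.8% to 21.8%. Of the 67 members tested in that set, 16 were at 0 in each of these libraries, and 19 had their highest value of all 20 libraries in atm-1 control replicate 1. In the other set such genes were scarce in all 8 ku70 and DJ libraries (1.22% to 8.30% of detected genes) and in TOP6A3-OE1 (5.80%), against 20.8% in TOP6A3-OE1 atm-2. How many reads a 0 allows in those libraries is not known. A log2(FPKM + 1) difference against a group at 0 is therefore set partly by the added 1 FPKM and is not a fold.

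Part of the family was not detected above 1 FPKM in these leaves. Of the 111 members, 32 never reached 1 FPKM in any library (17 phi, 13 tau and 2 DHAR genes), and 67 members in the set of 20 libraries and 62 in the set of 10 passed the requirement of 1 FPKM in at least 2 libraries. In the phi class, 8 of 30 passed in the first set, against 37 of 56 in the tau class and 4 of 4 in the zeta class. A gene on the opposite strand overlaps 22 of the 30 phi and 23 of the 56 tau members. Of those, 5 phi and 8 tau members passed in the first set. A few members carried most of the signal. The 10 highest held 64.5% of the family's mean summed FPKM in the first set and 72.4% in the second, and the 3 highest held 35.0% and 40.9%.

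The most abundant members of the first set were the tau genes OsGSTU17 (Os09g0467200), OsGSTU23 (Os10g0530400) and OsGSTU13 (Os10g0530500), followed by OsDHAR1 (Os05g0116100), a cytosolic dehydroascorbate reductase, and the lambda gene OsGSTL2 (Os03g0283100). OsDHAR1 led the second set, with 765 and 966 FPKM in the DJ controls. Of the theta, TCHQD and microsomal classes, the single theta gene OsGSTT1 lay between 44.2 and 94.6 FPKM in the first set. By position, 24 tau genes lay in one run on chromosome 10 (20551209 to 20646880, with each next member within 50 kb; the genome build is not given in the sources used here). Another 6 tau genes lay just before it (20432061 to 20499096), 13 phi genes formed a run on chromosome 1 (15170441 to 15345409), and 7 members lay together further along chromosome 1 (41839952 to 41854878). Of all members, 51 overlap a gene on the opposite strand, 16 of them among those tested in the first set. The kit used marks strand, but how strand was handled in counting is not given in the sources used here, so reads of such pairs may not be separable.

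**Figure D1:**
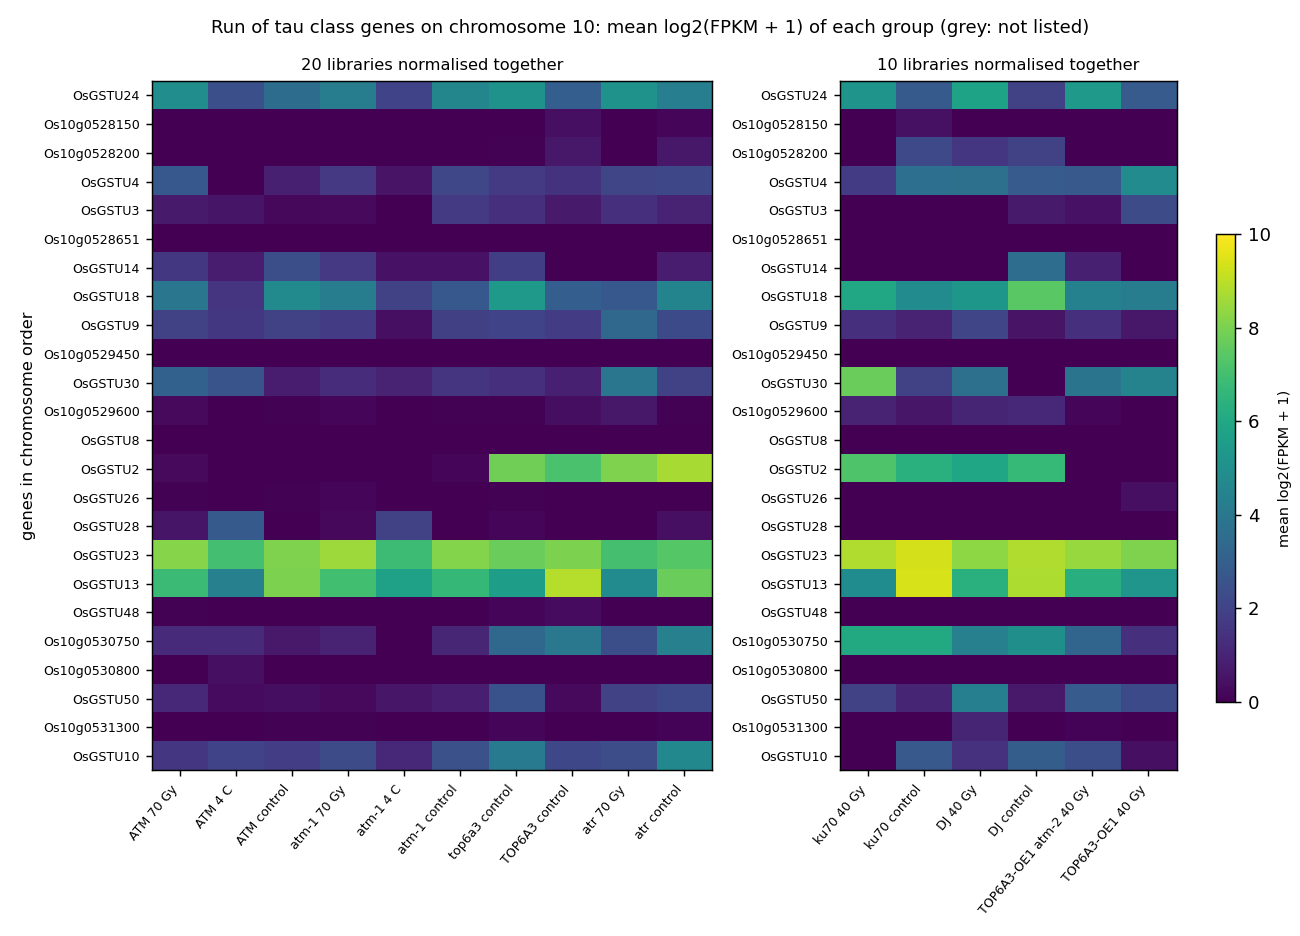
Mean log2(FPKM + 1) of the 24 tau genes of the chromosome 10 run, in chromosome order, in each group of both sets of libraries (yellow is high, dark purple is 0). OsGSTU23 and OsGSTU13 were high in most groups and OsGSTU2 was high or at 0 by line. Several members were at or near 0 throughout, some of them overlapping another member on the opposite strand.

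Within the long chromosome 10 run, neighbours differed widely in level. OsGSTU23 and OsGSTU13 averaged 255 and 157 FPKM over the first 20 libraries, whereas OsGSTU8, Os10g0529450 and Os10g0528651 were listed at 0 in all of them. These last overlap other members of the run on the opposite strand (Os10g0529600, OsGSTU9 and OsGSTU3), so they are not separate places in it. Of the 24 genes, 14 passed the level requirement in the first set and 15 in the second. The heat map of this run shows that its genes did not share one pattern over the groups.

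OsGSTU2 (Os10g0529800, chromosome 10, 20600983 to 20601889) was present or absent by line. It lay at or near 0 in the 14 ATM and atm-1 libraries (0 in 12 of them, highest 0.721 FPKM, 13 reads in all), against 138 to 413 FPKM in the 6 libraries labelled TOP6A3, top6a3 or atr (median 244, 20966 reads). In the other set it was at 0 in both TOP6A3-OE1 libraries, against 52.9 to 164 FPKM in the 8 ku70 and DJ libraries (median 92.1). No library of one kind came near those of the other, whatever its treatment.

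Os10g0368100 (chromosome 10, 11537637 to 11538948), a member outside the named classes, followed the same lines. It was at 0 in the 14 ATM and atm-1 libraries, against 3.45 to 16.3 FPKM in the TOP6A3, top6a3 and atr libraries (median 13.9). It was at 0 in both TOP6A3-OE1 libraries too, against 0 to 11.7 FPKM in the ku70 and DJ libraries (median 4.94), of which DJ 40 Gy replicate 2 was also at 0. These were 2 of 67 tested members with under 1 FPKM in all ATM and atm-1 libraries and over 1 FPKM in all TOP6A3, top6a3 and atr libraries. The pattern was met by 2.99% of all genes tested, so the members' share was near that of all genes. Both members passed the level requirement of this set only through the TOP6A3, top6a3 and atr libraries. The reverse pattern was met by 94 genes and 0 members. The rule was set after the values were seen, and no test was made of it.

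**Figure D2:**
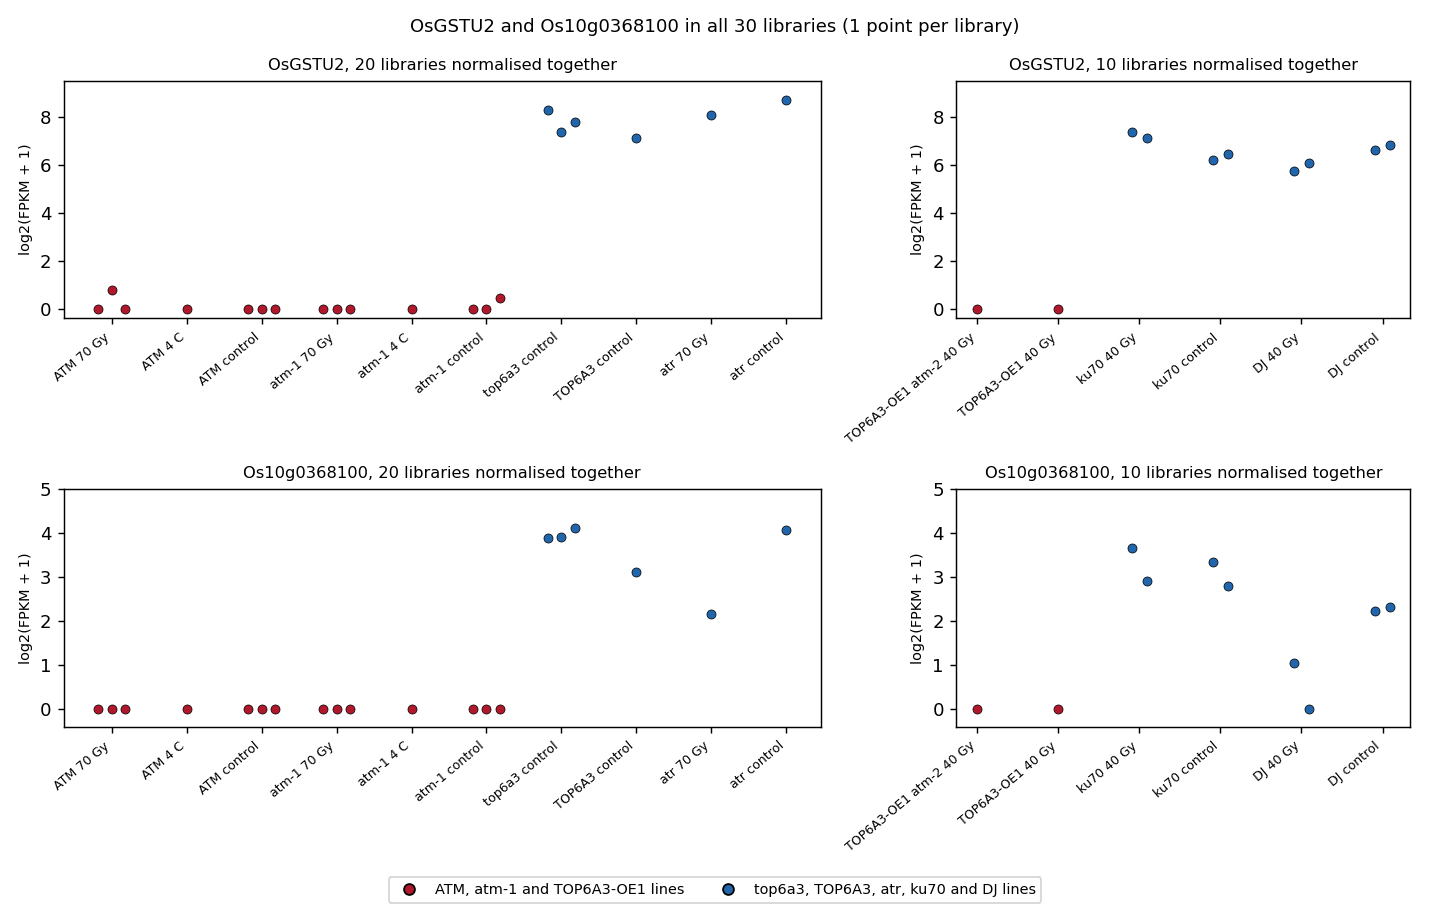
Log2(FPKM + 1) of OsGSTU2 and Os10g0368100 in each of the 30 libraries, by group, with 1 point per library; red marks the ATM, atm-1 and TOP6A3-OE1 lines and blue the others. Red points sit at or near 0 in both genes, and blue OsGSTU2 points lie between 52.9 and 413 FPKM.

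The question of how leaves of each line respond to 40 Gy gave the largest changes in the family. In the libraries labelled ku70, 6 members rose and 4 fell of the 62 tested (limma, adjusted p under 0.05), beside 9.92% of all genes called. The members' median log2 difference was 0.00, while that of all genes was -0.29. Of the 34 tau genes tested, 5 rose and 2 fell. The irradiated ku70 libraries had 25651 and 25713 genes at 0, against 18963 and 20527 in the ku70 controls, and 17 to 19 of the 62 members at 0, against 10 to 11 in the controls. The part of this in the members' values was not tested. In DJ, 1 member rose and 1 fell, beside 1.03% of all genes called. The one that fell, OsGSTU14, passed the level requirement through the DJ controls alone and is no support for a change. The medians in DJ were -0.07 for members and 0.00 for all genes. All differences below are on the log2(FPKM + 1) scale, and they understate changes of low genes. The standard error (SE) is from the fit of 10 libraries, in which only the ku70 and DJ groups hold replicates that give a spread.

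Of the tau genes that rose in ku70, OsGSTU6 (Os01g0558100, chromosome 1, 21114757 to 21115731) was the clearest. It stood at 128 and 169 FPKM in ku70 at 40 Gy, against 5.02 and 3.46 FPKM in the ku70 controls (log2 4.84, SE 0.34, adjusted p = 0.00540). In DJ it stood at 14.6 and 9.26 FPKM at 40 Gy, against 7.10 and 5.99 FPKM in controls (log2 0.75, adjusted p = 0.454). Groups did not overlap in either line, and the 2 irradiated ku70 libraries lay far above the other 6. The response of ku70 exceeded that of DJ by 4.09 (95% interval 2.88 to 5.29, adjusted p = 0.0368), in a comparison where 1.15% of all genes and 2 of 62 members were called, the other being OsGSTU14. That difference was lost when any of 7 of the 8 libraries was left out (adjusted p up to 0.0914), whereas the rise in ku70 itself held in each such fit.

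OsGSTU30 (Os10g0529500, chromosome 10, 20595069 to 20596048), in the middle of the long tau run, reached the highest level of the risers. It had 199 and 219 FPKM in ku70 at 40 Gy, against 0.682 and 7.88 FPKM in the ku70 controls (log2 5.76, SE 0.80, adjusted p = 0.0179). In DJ it had 9.45 and 14.8 FPKM at 40 Gy and was listed at 0 in both controls (log2 3.68, 95% interval 1.66 to 5.70, adjusted p = 0.137). The gene was thus higher in every irradiated library of both lines than in its line's controls, and the difference between the responses was not resolved (2.08, 95% interval -0.78 to 4.93, adjusted p = 0.483). Without ku70 40 Gy replicate 1 or 2 its ku70 call was lost (adjusted p = 0.0542 and 0.0558).

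OsGSTU16 (Os05g0412800, chromosome 5, 20192522 to 20193783) had 92.3 and 74.4 FPKM in ku70 at 40 Gy, against 1.42 and 0.202 FPKM in the ku70 controls (log2 5.62, SE 0.90, adjusted p = 0.0252). Its DJ values were 4.61 and 0 FPKM at 40 Gy and 0 in both controls, so only one irradiated DJ library held reads of it. OsGSTU37 (Os01g0949900, chromosome 1, 41846413 to 41847329) had 49.0 and 37.6 FPKM in ku70 at 40 Gy, against 0 and 1.40 FPKM in the ku70 controls (log2 4.83, SE 0.83, adjusted p = 0.0299). Its DJ values were 0 and 3.18 FPKM at 40 Gy, and 0 in both controls. Both genes were high in the irradiated ku70 libraries and lower in the other 6 ku70 and DJ libraries, but neither difference between the lines' responses passed the test (adjusted p = 0.199 for OsGSTU16 and 0.220 for OsGSTU37). Their ku70 calls were lost without any one of the 4 ku70 libraries (adjusted p up to 0.141 and 0.150).

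OsGSTU42 (Os01g0950300, chromosome 1, 41854018 to 41854878), a tau neighbour of OsGSTU37, had 18.6 and 11.9 FPKM in ku70 at 40 Gy (287 and 166 reads) and no reads in the ku70 controls (adjusted p = 0.0165). It also had no reads in either irradiated DJ library (adjusted p = 0.0365 for ku70 against DJ at 40 Gy). One DJ control held 1.80 FPKM and the other 0. The ku70 call was lost without either ku70 control (adjusted p up to 0.1002), the call against DJ without any of the 4 libraries compared (up to 0.102), and the difference in response did not pass (adjusted p = 0.0662). OsGSTU42 overlaps a gene on the opposite strand.

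Os02g0220500 (chromosome 2, 6716992 to 6720422), a gamma subunit of elongation factor 1B with a glutathione S-transferase-like domain, rose in both lines. It had 115 and 108 FPKM in ku70 at 40 Gy against 29.3 and 34.9 FPKM in the ku70 controls (log2 1.77, SE 0.18, adjusted p = 0.00952). In DJ it had 70.9 and 56.8 FPKM at 40 Gy against 21.6 and 23.7 FPKM in controls (log2 1.45, SE 0.18, adjusted p = 0.0465). Irradiated and control libraries were separate in both lines. The DJ call was lost without any one of the 4 DJ libraries (adjusted p up to 0.109), and the ku70 call without ku70 control replicate 1 (0.0585). The group means of all 3 gamma subunits were higher after 40 Gy in DJ and in ku70, and Os02g0220500 was the one called. The ku70 groups overlapped for OsEF1G2, with 50.3 and 27.8 FPKM at 40 Gy against 30.4 and 32.9 FPKM in controls.

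The members that fell in ku70 were among the most abundant. OsGSTU13, in the long tau run (chromosome 10, 20622453 to 20623389), had 15.5 and 49.9 FPKM in ku70 at 40 Gy against 574 and 769 FPKM in the ku70 controls (log2 -4.52, SE 0.61, adjusted p = 0.0168). In DJ it had 59.0 and 110.0 FPKM at 40 Gy against 515 and 364 FPKM in controls (log2 -2.41, 95% interval -3.96 to -0.86, adjusted p = 0.190). OsGSTU46 (Os07g0468100, chromosome 7, 16674227 to 16675326) had 20.6 and 27.7 FPKM in ku70 at 40 Gy against 283 and 496 FPKM in the ku70 controls (log2 -3.91, SE 0.34, adjusted p = 0.00692). The irradiated libraries lay below the controls without overlap for both genes. OsGSTU46 had 43.6 and 40.2 FPKM in DJ at 40 Gy against 206 and 148 FPKM in controls (log2 -2.03, 95% interval -2.89 to -1.17, adjusted p = 0.0807). The larger log2 differences in ku70 were not told apart from those in DJ (adjusted p = 0.342 for OsGSTU13 and 0.163 for OsGSTU46). The OsGSTU13 call in ku70 was lost without either ku70 control (adjusted p up to 0.110), and that of OsGSTU46 held in each fit that left out a library.

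OsGSTL2, a lambda gene (chromosome 3, 9712224 to 9714920), had log2 differences of similar size in both lines. It had 74.2 and 55.9 FPKM in ku70 at 40 Gy against 179 and 188 FPKM in the ku70 controls (log2 -1.49, SE 0.23, adjusted p = 0.0221). In DJ it had 60.4 and 84.0 FPKM at 40 Gy against 189 and 176 FPKM in controls (log2 -1.35, adjusted p = 0.0807). The difference between the responses was -0.15 (95% interval -0.95 to 0.66). OsGRX20 (Os08g0558200, chromosome 8, 27938261 to 27941159), annotated with the N-terminal domain of the family, had 81.2 and 95.0 FPKM in ku70 at 40 Gy against 466 and 459 FPKM in the ku70 controls (log2 -2.38, SE 0.39, adjusted p = 0.0264), and 138 and 90.4 FPKM in DJ at 40 Gy against 163 and 334 FPKM in controls (log2 -1.06, adjusted p = 0.346). Irradiated libraries were below controls in both lines for both genes. The ku70 call of OsGRX20 was lost without any one of the 4 ku70 libraries (adjusted p up to 0.139), and that of OsGSTL2 without ku70 40 Gy replicate 2 or either control (up to 0.123).

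**Figure D3:**
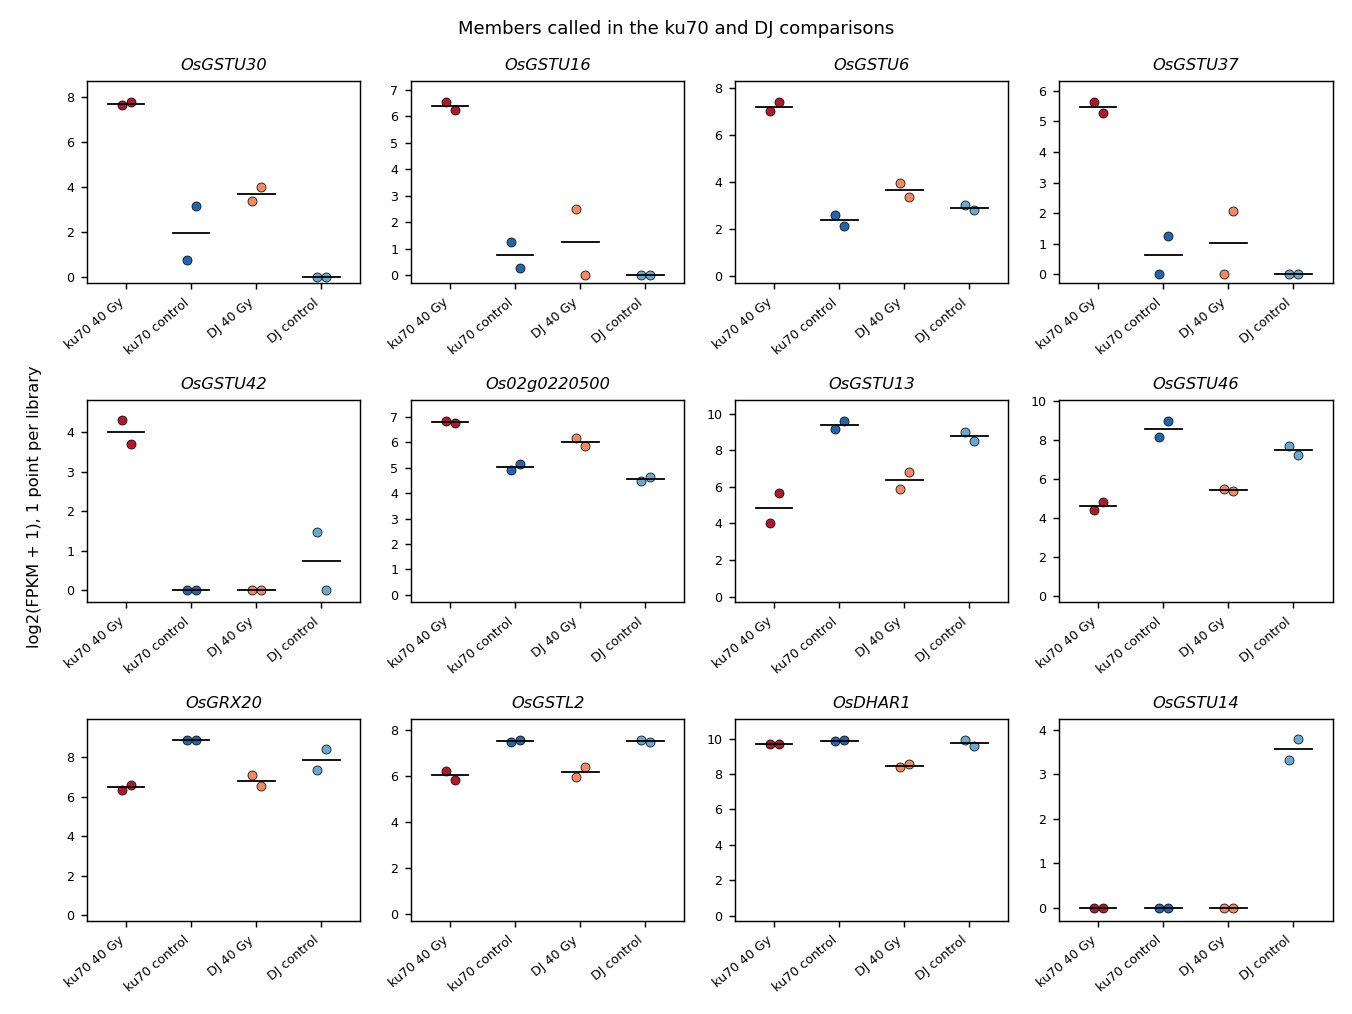
Log2(FPKM + 1) of 12 members in the ku70 and DJ libraries after 40 Gy and in controls, with 1 point per library and a bar at the mean of the log2 values. The tau genes OsGSTU30, OsGSTU16, OsGSTU6, OsGSTU37 and OsGSTU42 are highest in irradiated ku70, and OsGSTU13, OsGSTU46, OsGRX20 and OsGSTL2 are lower in irradiated than in control libraries of both lines.

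OsGSTU14 (Os10g0528900, chromosome 10, 20574829 to 20576053) was the lower called member in DJ. Neither DJ library at 40 Gy had a read of it, while the DJ controls held 9.05 and 12.9 FPKM (126 and 190 reads). It had no reads in any of the 4 ku70 libraries, and it was the 1 member of 62 called between the untreated lines, beside 0.62% of all genes. The difference between the 2 responses to 40 Gy was 3.56 on the log2 scale. OsGSTU14 reached 1 FPKM in the 2 DJ controls and in 0 of the other 8 libraries, so it could enter the fit only by differing, and these calls are given without a p and as a description. Median log2 differences between untreated ku70 and DJ were 0.34 for members and 0.02 for all genes.

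Set side by side after irradiation, ku70 exceeded DJ for 3 of 62 members and fell below it for 0, beside 2.75% of all genes called in either direction. OsGSTU6 (log2 3.55, SE 0.34, adjusted p = 0.0181) and OsGSTU42 were described above. The third, OsDHAR1 (chromosome 5, 877099 to 880445), had 815 and 818 FPKM in ku70 at 40 Gy against 329 and 379 FPKM in DJ at 40 Gy (log2 1.21, SE 0.17, adjusted p = 0.0405). The controls of the lines overlapped, with 936 and 954 FPKM in ku70 and 966 and 765 FPKM in DJ. The irradiated DJ libraries were the low ones: the log2 difference was -0.21 within ku70 (adjusted p = 0.507), against -1.28 within DJ (adjusted p = 0.0504), and the difference between these was 1.07 (adjusted p = 0.131). The call for OsDHAR1 was lost without any one of the 4 irradiated libraries (adjusted p up to 0.0947), and the gene overlaps another on the opposite strand. These comparisons share libraries with those within each line.

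Other markers moved with the 40 Gy groups. The 36 leaf mesophyll markers (chlorophyll-binding proteins and the Rubisco small subunit) summed to 10030 to 12781 FPKM in ku70 at 40 Gy against 75941 to 77892 FPKM in the ku70 controls, and 15 of the 26 tested fell and 0 rose. In DJ they summed to 17161 to 20074 FPKM at 40 Gy against 46688 to 51600 FPKM in controls, with 1 risen and 2 fallen. In bulk leaf RNA, fewer cells of a type and less RNA per cell cannot be told apart. The 14 root-specific genes summed to 317 to 543 FPKM in ku70 at 40 Gy against 185 to 196 FPKM in the ku70 controls, with 13 of 14 at 0 in the irradiated group. The sum in irradiated ku70 thus came from 1 gene, and of the 3 root-specific genes tested 0 rose and 1 fell. In DJ the 14 summed to 190 to 554 FPKM at 40 Gy, with 11 of 14 at 0, against 39.1 to 48.9 FPKM in controls, with 9 at 0. Of the 3 tested in DJ, 0 rose and 0 fell. The proliferation marker PCNA stood at 150 to 164 FPKM in ku70 at 40 Gy against 11.8 to 13.8 FPKM in its controls, and rose. In DJ it stood at 18.6 to 29.3 FPKM at 40 Gy against 11.4 to 13.4 FPKM in controls, and was not called. The part of these changes in the members' values was not tested.

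The authors' deposited table for DJ at 40 Gy listed 770 genes, beside 40718 genes listed for that set of libraries. It held 10 of the 105 members listed for the set, 5 higher and 5 lower. It gave OsGSTU30 a log2 fold change of 9.57 (adjusted p = 0.00140), the tau genes OsGSTU5 and OsGSTU24 9.05 (adjusted p = 0.0170) and 4.15 (adjusted p = 5.34e-05), and the elongation factor subunits OsEF1G2 and Os02g0220500 1.81 and 1.58. On the lower side, the authors' deposited table gave OsGSTU14 -9.92, OsGSTU13 -2.30, OsGSTU46 -1.99, OsGSTL2 -1.26 and OsDHAR1 -1.21. For OsGSTU30, OsGSTU5 and OsGSTU14 a DJ group had no reads, so the size of those values is not a measured fold. The direction of each of the 10 members was the same in the fit used here, where 2 of them passed. The authors' table and the fit describe the same DJ comparison, so the shared direction is no independent support. Of the 2, OsGSTU14 passed the level requirement through the DJ controls alone. OsGSTU24 (chromosome 10, 20551209 to 20552361), the first gene of the long run, had 65.9 and 45.3 FPKM in DJ at 40 Gy against 1.53 and 5.12 FPKM in controls (limma log2 3.82, adjusted p = 0.0760). OsGSTU5 had 2.53 and 12.9 FPKM in DJ at 40 Gy and was at 0 in both DJ controls and in all 4 ku70 libraries.

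After 24 h of cold, members were called in both directions, and how their share stood to that of all genes depended on the fit. Over the ATM and atm-1 lines together, 4 members rose and 10 fell of 67 tested at 4 °C (limma, adjusted p under 0.05), beside 28.4% of all genes called. One of the 4, OsGSTU28, entered the fit only through the cold libraries. With limma-voom on recovered reads, 16 members were called, beside 20.6% of all genes. The members' median log2 difference was -0.28 and that of all genes -0.01. Of the 37 tau genes tested, 28 were lower and 9 higher, with 3 fallen and 2 risen. How all genes split by direction is not given here, so these counts by direction are description. The 1 cold library of each line was assumed to vary like the other groups.

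OsGSTU11 (Os07g0168300, chromosome 7, 3662374 to 3663407), a tau gene, fell most. It had 2.16 FPKM in cold ATM and 1.27 FPKM in cold atm-1, against 18.7, 38.2 and 28.1 FPKM in the ATM controls and 20.8, 7.28 and 16.3 FPKM in the atm-1 controls (log2 -2.92, SE 0.43, adjusted p = 0.000394). Os03g0709000 (chromosome 3, 28594360 to 28596338), described as like microsomal glutathione S-transferase 3, a membrane-bound enzyme of a separate protein family, had 9.77 FPKM in cold ATM and 17.5 FPKM in cold atm-1, against 60.5, 72.6 and 89.7 FPKM in the ATM controls and 49.9, 79.5 and 105 FPKM in the atm-1 controls (log2 -2.41, SE 0.30, adjusted p = 0.000117). Both cold libraries lay below all 6 controls for both genes.

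The phi gene OsGSTF3 (Os03g0135300, chromosome 3, 1954717 to 1955959) had 12.9 and 27.5 FPKM in cold ATM and atm-1, against 69.7, 86.5 and 66.5 FPKM in the ATM controls and 23.4, 68.5 and 74.6 FPKM in the atm-1 controls (log2 -1.62, SE 0.33, adjusted p = 0.00314). Here 1 control, atm-1 control replicate 1, lay below the cold atm-1 library. OsERS1 (Os10g0369000), the glutamyl-tRNA synthetase that charges tRNA in the cytosol, had 6.35 and 6.96 FPKM in the cold libraries, against 15.7 to 24.9 FPKM in the 6 controls (log2 -1.49, SE 0.17, adjusted p = 6.51e-05). The tau genes OsGSTU18 and OsGSTU23 of the long chromosome 10 run fell by 1.98 (adjusted p = 0.0229) and 1.17 (adjusted p = 0.00875), OsGSTL2 fell by 1.44 (adjusted p = 0.00665) and Os02g0220500 fell by 0.83 (adjusted p = 0.000736). The remaining 2 falls, of the zeta gene OsGSTZ2 and of OsEF1G2, were of 0.73 and 0.57.

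Of the members higher in the cold, OsGSTU34 and OsGSTU28 were at or near 0 in the controls. OsGSTU34 (Os10g0395400, chromosome 10, 13263902 to 13265563), described as like maize Bronze-2, which works in anthocyanin deposition, had 0.906 and 6.23 FPKM in cold ATM and atm-1, against 0 to 0.28 FPKM in the 6 controls (log2 1.73, SE 0.21, adjusted p = 7.93e-05). OsGSTU28 (Os10g0530300, chromosome 10, 20617243 to 20617584) had 6.21 and 2.89 FPKM, from 19 and 9 reads, and no reads in the 6 controls. Outside the cold libraries it reached 1 FPKM in 1 library, so it could enter the fit only through them, and no p is given. The phi gene OsGSTF4 (Os01g0933900) had 23.2 and 25.5 FPKM in the cold libraries against 4.68 to 10.8 FPKM in the 6 controls (log2 1.45, SE 0.30, adjusted p = 0.00370), with no overlap. OsGSTF4 overlaps a gene on the opposite strand.

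The zeta gene OsGSTZ3 (Os02g0564000) had 138 and 120.2 FPKM in the cold libraries, against 55.2, 61.2 and 56.1 FPKM in the ATM controls and 136, 65.3 and 48.4 FPKM in the atm-1 controls (log2 0.96, SE 0.33, adjusted p = 0.0460). The high control was atm-1 control replicate 1, and the call was lost in 8 of 12 alternative fits (adjusted p up to 0.235). OsGSTU18 was lost in 1 of 12, the fit of recovered reads with limma-voom (adjusted p = 0.204). The other 10 of the 12 largest cold calls held in all 12. OsGSTU28 is among these 10, but it entered the fit only through the cold libraries, so its holding is no support.

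Descriptions of 35 members liken them to a 28 kDa cold-induced protein. Of the 22 tested, 1 rose in the cold (OsGSTU28), 3 fell (OsGSTU11, OsGSTU18 and OsGSTU23), 18 were lower and 4 higher, and their median log2 difference was -0.76. In the long chromosome 10 run, 1 of 14 rose and 2 fell. OsGSTU28 is the risen one in both counts, and neither count exceeds the 28.4% of all genes called. The mesophyll markers summed to 3183 and 7084 FPKM in the cold libraries against 14822 to 29939 FPKM in the 6 controls, with 17 of 26 tested fallen and 0 risen. Their part in the members' decreases was not tested.

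**Figure D4:**
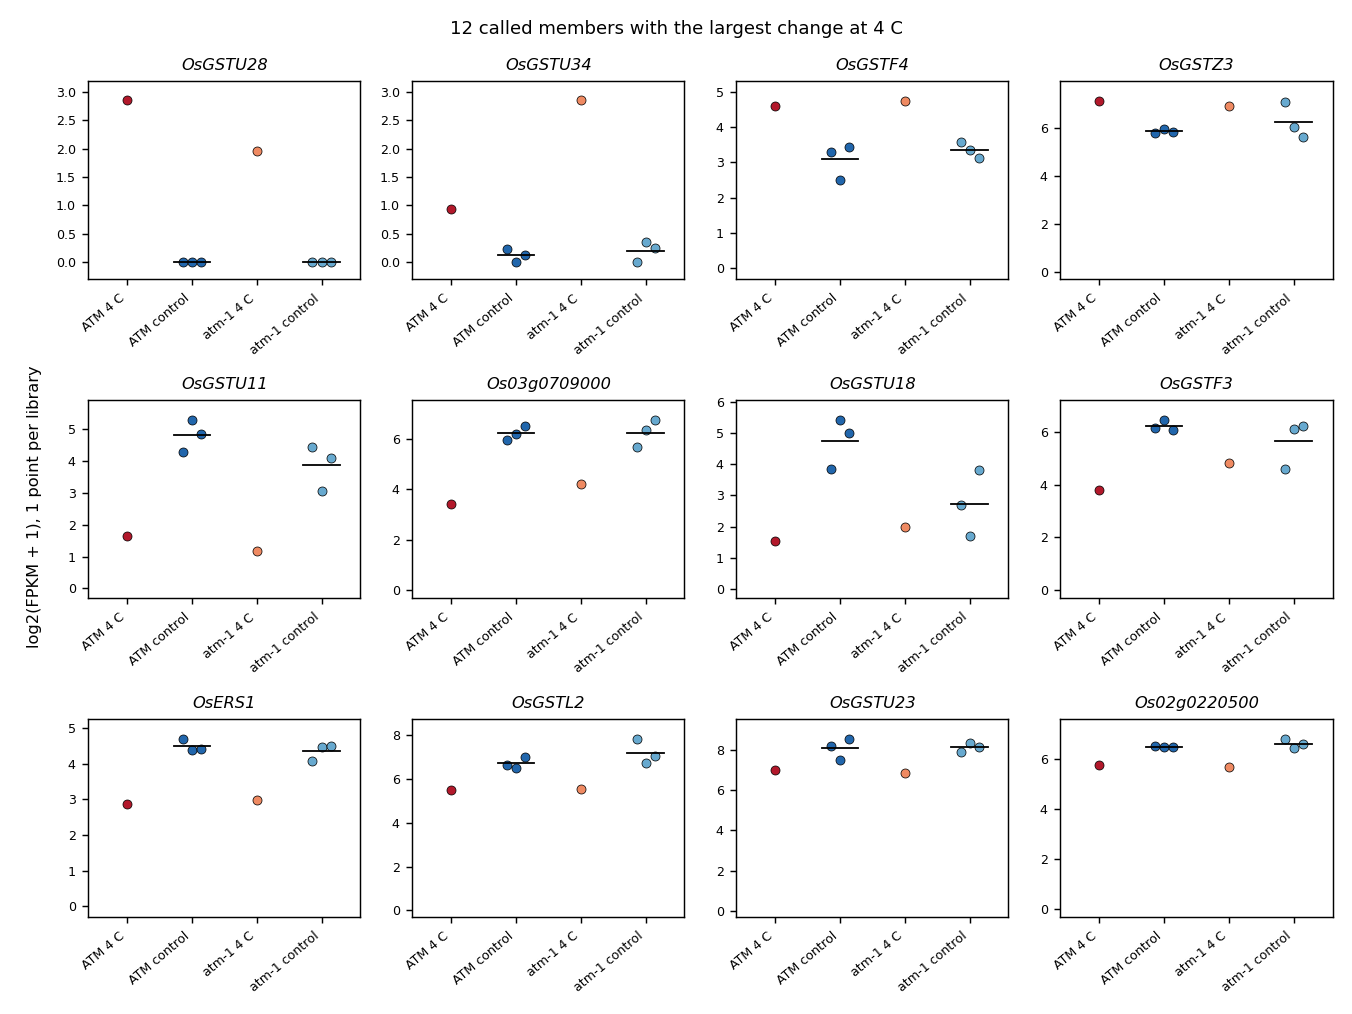
Log2(FPKM + 1) of the 12 members with the largest called cold differences in ATM and atm-1 leaves at 4 °C and in controls, with 1 point per library and a bar at the mean of the log2 values. OsGSTU11 and Os03g0709000 in both cold libraries lie below all 6 controls, and OsGSTF4 and OsGSTU34 lie above them.

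Untreated leaves labelled top6a3 differed from the library labelled TOP6A3 in 7 of 67 members, with 6 risen and 1 fallen (limma, adjusted p under 0.05), beside 12.9% of all genes called. The members' median log2 difference was 0.26 and that of all genes 0.06. The single TOP6A3 library was assumed to vary like the other groups.

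OsGSTU12 (Os10g0527800, chromosome 10, 20498004 to 20499096), at the end of the shorter tau run, had 30.2, 29.2 and 42.8 FPKM in top6a3 against 2.77 FPKM in TOP6A3 (log2 3.20, SE 0.93, adjusted p = 0.0417). OsGSTU21 (Os10g0525500, chromosome 10, 20434654 to 20435650), in the same run, had 19.1, 18.5 and 27.7 FPKM in top6a3 against 5.39 FPKM in TOP6A3 (log2 1.81, SE 0.48, adjusted p = 0.0255). All top6a3 libraries were above the TOP6A3 library for both. The mean log2 differences of the 6 genes of this run were 0.17 to 3.20, with a median of 1.24, where 41 of all 67 members were higher. Of the 6, OsGSTU31 had 0, 2 and 2 reads in top6a3 and OsGSTU20 had 0, 4 and 4. Both were at 0 in TOP6A3, so these 2 genes rest on almost no reads. In the 2 atr libraries, from another line, OsGSTU12 had 14.5 and 22.1 FPKM and OsGSTU21 11.3 and 13.1 FPKM.

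OsGSTU17 (chromosome 9, 17747275 to 17748705), the most abundant member of the set, had 1013, 865 and 1219 FPKM in top6a3 against 357 FPKM in TOP6A3 (log2 1.52, SE 0.46, adjusted p = 0.0494). The phi gene OsGSTF4 (chromosome 1, 40962722 to 40964240) had 21.3, 19.0 and 32.9 FPKM in top6a3 against 5.48 FPKM in TOP6A3 (log2 1.94, SE 0.43, adjusted p = 0.0104). The zeta gene OsGSTZ4 (Os11g0245100) had 16.0, 11.0 and 12.5 FPKM in top6a3 against 3.80 FPKM in TOP6A3 (log2 1.55, SE 0.43, adjusted p = 0.0344). None of these groups overlapped. Os10g0368100 had 13.8, 14.0 and 16.3 FPKM in top6a3 against 7.71 FPKM in TOP6A3 (log2 0.85, SE 0.16, adjusted p = 0.00444). Reads of OsGSTU17 and OsGSTF4 may include those of genes on the opposite strand.

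The member that fell was OsGSTF3, with 31.1, 31.0 and 34.4 FPKM in top6a3 against 121 FPKM in TOP6A3 (log2 -1.87, SE 0.47, adjusted p = 0.0198). OsGSTU13 had 48.7, 47.9 and 46.1 FPKM in top6a3 against 474 FPKM in TOP6A3, but its value also ranged from 10.6 to 368 FPKM within the atm-1 controls, and it did not pass. Leaving out a library ended several calls: OsGSTU12 and OsGSTU17 without any of the 3 top6a3 libraries (adjusted p up to 0.229 and 0.113 over all alternatives), OsGSTZ4 without replicate 1 or 3, and OsGSTU21 without replicate 3. The call of OsGSTF3 held in all 9 alternatives.

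The 14 root-specific genes summed to 121 to 138 FPKM in top6a3, with 4 of 14 at 0 throughout, against 23.9 FPKM in TOP6A3, with 10 at 0; of 6 tested, 5 rose. The mesophyll markers summed to 26029 to 41371 FPKM in top6a3 against 17474 FPKM in TOP6A3, with 10 of 26 risen and 2 fallen. The part of either in the members' values was not tested.

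**Figure D5:**
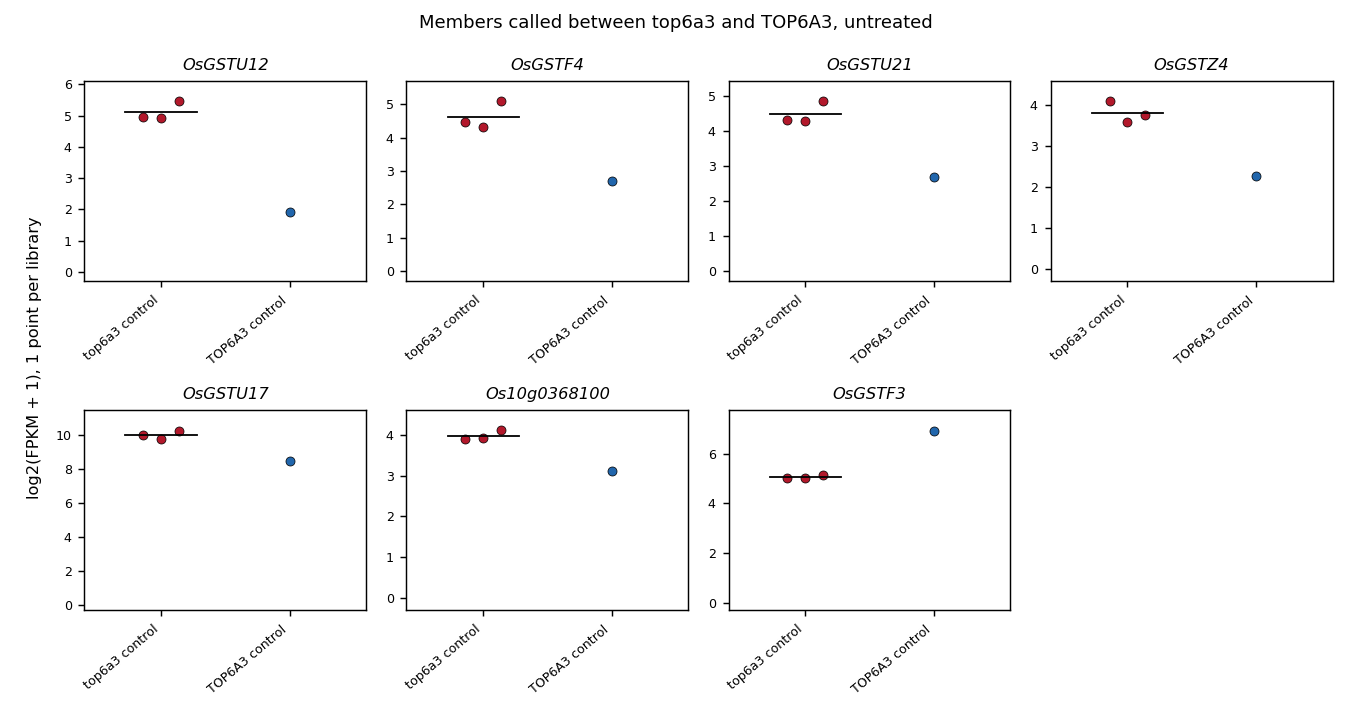
Log2(FPKM + 1) of the 7 members called between untreated leaves labelled top6a3 (3 libraries) and the library labelled TOP6A3, with 1 point per library and a bar at the mean of the log2 values. All 3 top6a3 libraries lie above the TOP6A3 library for the 6 members that rose and below it for OsGSTF3.

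In the ATM line, where 70 Gy raised the transcript of PCNA to 68.4 to 148 FPKM against 8.29 to 16.6 FPKM in controls, 0 of 67 members passed the test (limma; 10 had an unadjusted p under 0.05, and limma-voom on recovered reads called 0 with 7 unadjusted). The background was 0.525% of all genes. Members lay higher in 35 cases and lower in 31, with medians of 0.07 for members and -0.05 for all genes. The values with the smallest p are given without a call, chosen after they were seen.

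OsGSTF3 had 29.5, 28.8 and 25.2 FPKM in ATM at 70 Gy, against 69.7, 86.5 and 66.5 FPKM in the ATM controls (log2 -1.38, 95% interval -2.10 to -0.66, adjusted p = 0.123). OsGSTF4 had 16.6, 13.6 and 27.4 FPKM at 70 Gy, against 8.86, 4.68 and 9.80 FPKM in controls (log2 1.20, adjusted p = 0.142). OsGSTU30 had 8.24, 5.32 and 9.52 FPKM at 70 Gy, against 0.840, 0.449 and 0.955 FPKM in controls (log2 2.29, 95% interval 0.96 to 3.63, adjusted p = 0.170). The irradiated and control ATM libraries were separate for all 3 genes. OsGSTU37 had 43.7, 36.2 and 2.99 FPKM in ATM at 70 Gy, against 1.89, 0.193 and 0.343 FPKM in controls (log2 3.49, adjusted p = 0.184), with replicate 3 far below the other irradiated libraries. OsGSTU16 had 4.04, 4.65 and 0.913 FPKM at 70 Gy against 0.666, 0.13 and 1.5 FPKM in controls, which overlap. When replicate 3 of ATM at 70 Gy and replicate 1 of the atm-1 controls were both left out, 8 members passed beside 6.81% of all genes, and with library weights 20 did beside 24.5% of all genes.

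In atm-1, 0 of 67 members and 0% of all genes passed at 70 Gy (limma; 8 members had an unadjusted p under 0.05, and limma-voom called 0 with 8). The smallest p belonged to OsGSTU15 (Os10g0525400), with 36.0, 32.9 and 19.95 FPKM in atm-1 at 70 Gy against 10.8, 5.87 and 19.7 FPKM in the atm-1 controls (log2 1.32, adjusted p = 0.555). OsGSTU30 had 0.238, 4.43 and 1.08 FPKM in atm-1 at 70 Gy, against 6.42, 0.319 and 1.25 FPKM in its controls. These overlap, unlike in ATM, but the difference between the responses was not called (log2 -2.51, 95% interval -4.41 to -0.62, adjusted p = 0.574). In that difference 0 of 67 members passed (8 unadjusted, limma-voom 0 with 7) beside 0.167% of all genes.

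Set side by side 6 h after 70 Gy, atm-1 and ATM differed in 0 of 67 members (limma, 6 unadjusted, and limma-voom 0 with 4), beside 0.330% of all genes. OsGSTU16 had 0.288, 0.415 and 0.470 FPKM in atm-1 against 4.04, 4.65 and 0.913 FPKM in ATM (log2 -1.45, adjusted p = 0.530), with no overlap. Between untreated atm-1 and ATM, 0 of 67 members (7 unadjusted, limma-voom 0 with 4) and 0% of all genes passed. The smallest p was that of OsGSTU14, with 0, 0.183 and 1.40 FPKM in the atm-1 controls against 2.57, 6.58 and 4.43 FPKM in the ATM controls (log2 -1.90, 95% interval -2.93 to -0.87, adjusted p = 0.710). Here too the groups were separate. These 5 comparisons share libraries with each other.

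In the atr line, 1 library at 70 Gy was set against 1 control, and no test was made. Of 57 members measured, 8 were higher and 13 lower by 1 or more on the log2(FPKM + 1) scale, beside 21.8% of all genes past that size in either direction. The median was -0.10 for members and -0.05 for all genes. The tau genes OsGSTU13 (27.6 FPKM in atr at 70 Gy against 206 FPKM in atr control), OsGSTU46 (16.6 against 91.7 FPKM) and OsGSTU10 (4.13 against 24.7 FPKM) were lower, as was OsGSTF3 (10.3 against 69.2 FPKM). OsGSTU16 (14.8 FPKM in atr at 70 Gy against 2.99 FPKM in atr control), OsGSTU30 (14.2 against 2.92 FPKM), OsTCHQD1 (19.0 against 4.20 FPKM) and OsGSTU6 (79.6 against 34.9 FPKM) were higher. The mesophyll markers summed to 2895 FPKM in atr at 70 Gy against 16276 FPKM in atr control, and their part in these values was not tested.

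At 40 Gy the library labelled TOP6A3-OE1 atm-2 was set against the library labelled TOP6A3-OE1, also as single libraries with no test made. Of 57 members measured, 15 were higher and 8 lower by 1 or more on the log2(FPKM + 1) scale, beside 29.4% of all genes in either direction, and the median was 0.21 for members and 0.00 for all genes. OsGSTU24 (40.2 FPKM in TOP6A3-OE1 atm-2 against 6.38 FPKM in TOP6A3-OE1), OsGSTU17 (326 against 77.8 FPKM), OsGSTU46 (15.2 against 2.97 FPKM) and Os02g0814800 (13.4 against 2.57 FPKM), the last similar to bacterial glutathionyl-hydroquinone reductases, were higher. OsGSTU4 (5.92 FPKM in TOP6A3-OE1 atm-2 against 27.6 FPKM in TOP6A3-OE1) and OsGSTU35 (5.58 against 18.8 FPKM) were lower, and OsGSTU30 stood at 13.5 against 21.0 FPKM. The mesophyll markers summed to 77000 FPKM in TOP6A3-OE1 atm-2 against 17853 FPKM in TOP6A3-OE1. The root-specific genes summed to 8.81 against 246 FPKM, PCNA stood at 7.21 against 34.6 FPKM, and genes with 1 to 10 reads made up 20.8% against 5.80% of those detected. The part of any of these in the members' values was not tested.

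Other genes of glutathione use were followed beside the family: 127 genes picked by words in their descriptions or by symbol, of which 82 were tested in the first set and 72 in the second. At 4 °C, 11 of the 82 rose and 9 fell, with a median log2 difference of -0.08, beside 28.4% of all genes called and a median of -0.01. Of 30 glutaredoxins, small thiol oxidoreductases, 7 fell and 1 rose, a share near that of all genes. They included OsGRX27 (log2 -2.61, adjusted p = 0.000115) and OsGRX9 (log2 -2.28, adjusted p = 0.00439). OsECS, the first enzyme of glutathione synthesis, rose by 0.80 (adjusted p = 0.0115), and 3 of 6 oxophytodienoate reductases rose, led by OPR7 of jasmonate synthesis (log2 2.00, adjusted p = 0.000929). Of 17 transporters of the family that carries glutathione conjugates into the vacuole, 1 rose, OsABCC8 (log2 1.45, adjusted p = 0.0107).

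In ku70 at 40 Gy, 1 of the 72 rose and 7 fell, a share near the 9.92% of all genes called, with a median of -0.44 for the list and -0.29 for all genes. The glutathione peroxidase OsGpx4 fell by 3.59 (adjusted p = 0.00613) and OsGRX9 fell by 3.95 (adjusted p = 0.0187), while OsMDAR4, a monodehydroascorbate reductase of ascorbate recycling, rose by 1.98 (adjusted p = 0.0109). None of the 3 glutathione reductases, the 5 synthesis genes or the 12 conjugate transporters tested passed there. In top6a3, 3 of the 82 rose and 2 fell, beside 12.9% of all genes, among the risen OsABCC9 (log2 2.15, adjusted p = 0.00765). In DJ at 40 Gy, 0 of the 72 passed.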

How the data were processed

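Leaf RNA-seq values were deposited by the authors as FPKM per gene in tables that also give gene length, per the file headers; replicates were not pooled. How reads were aligned and counted, and on which genome build, is not given in the sources used here. In each library, FPKM times length fell on multiples of 1 step (100% of values within 0.01 of a whole number), which gave back reads per gene and showed 2 separately scaled sets, of 20 and 10 libraries; tests stayed within a set. The authors' deposited table for DJ at 40 Gy gives log2 fold changes and p-values and was used for description. All library columns matched a sample (0 left over).

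A gene entered the fit if 2 libraries reached 1 FPKM (24582 and 23063 genes). The fit used limma 3.58.1 (limma-trend, R 4.3.3) on log2(FPKM + 1), with 1 mean per group and 10 and 4 residual degrees of freedom. Tests were two-sided, with Benjamini-Hochberg adjustment over all fitted genes, and called under 0.05. Pairs of single libraries got no test. The fit was tested on simulated data. Alternatives were a pseudocount of 0.1, no filter, median ratio scaling, limma-voom on recovered reads, library weights, a replicate block, leaving out each library and leaving out atm-1 control replicate 1 together with ATM 70 Gy replicate 3. Python 3.11.15, pandas 2.3.3, numpy 2.4.6 and matplotlib 3.10.9 were also used.

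Members, lists and tests were chosen with earlier results of these data known. Named were called members (at most the 12 largest per comparison), the 10 highest of each set, the highest of each class and, in pairs of single libraries, up to 5 each way with at least 10 FPKM; those with the smallest p where none was called were chosen after their values were seen. No sequences were used.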

Additional observations from a re-analysis of the deposited data

Results flagged for a closer look

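The tau gene OsGSTU6 was flagged because its 40 Gy response differed between the lines. The response in ku70 exceeded that in DJ by 4.09 on the log2 scale (limma, adjusted p = 0.0368, higher in 2 of 2 irradiated libraries of each line). This call was lost in 11 of 15 alternative fits, among them those on the 8 ku70 and DJ libraries alone. OsGSTU14 was flagged by the same test, with a difference of 3.56. It had no reads in the 4 ku70 libraries and both irradiated DJ libraries and entered the fit only through the 2 DJ controls, so no p is read from it.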

How the results depend on the processing

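Of the called members and those with the smallest p, for which alternatives were run, 0 changed direction, and of 37 named calls 13 held in every alternative. These 13 include OsGSTU28 at 4 °C, which entered the fit only through the cold libraries. Shares in parentheses are of all genes called in the same fit. The number of called members moved most with library weights: 20 for ATM at 70 Gy (24.5%), 11 for atm-1 at 70 Gy (10.8%), 7 for the difference of these responses (5.09%) and 14 for atm-1 against ATM at 70 Gy (12.8%), each with 0 in the reported fit, and 28 for top6a3 (46.5%, 7 reported), 37 at 4 °C (58.4%, 14 reported), 1 for DJ at 40 Gy (0.65%, 2 reported), 1 for the 40 Gy difference in response (0.616%, 2 reported) and 0 for ku70 against DJ at 40 Gy (0.464%, 3 reported). Without both atm-1 control replicate 1 and ATM 70 Gy replicate 3 it was 8 for ATM at 70 Gy (6.81%), 2 for atm-1 against ATM at 70 Gy (0.834%), 18 for top6a3 (32.7%) and 23 at 4 °C (47.9%). A pseudocount of 0.1 gave 3 for top6a3 (9.91%), 5 for DJ at 40 Gy (1.8%) and 5 for ku70 against DJ at 40 Gy (5.13%). No filter gave 11 for top6a3 (12%) and 1 for ku70 against DJ at 40 Gy (1.48%). Limma-voom gave 2 for top6a3 (7.61%), 1 for DJ at 40 Gy (0.312%), 11 for ku70 against DJ at 40 Gy (7.48%) and 0 for the untreated ku70 and DJ lines (0%, 1 reported). The cause was not tested. Leaving out 1 library gave 0 to 1 for ATM at 70 Gy (0.273% to 0.638%), 0 in the other atm-1 and ATM comparisons, 3 to 5 for top6a3 (10.1% to 11%), 11 to 20 at 4 °C (24.9% to 40.1%), 0 to 3 for DJ at 40 Gy (0.937% to 1.25%), 3 to 8 for ku70 at 40 Gy (1.95% to 8.91%), 1 to 4 for the 40 Gy difference in response (1.09% to 1.85%), 2 to 4 for ku70 against DJ at 40 Gy (1.54% to 3.05%) and 0 to 1 for the untreated lines (0.804% to 1.06%).

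Libraries with the same replicate number did not deviate together (correlations of -0.48 to 0.26 and -0.07 to 0.01), so the numbers were not taken as pairs. With the replicate block on the 8 ku70 and DJ libraries, 0 members were called for DJ at 40 Gy, 0 for the difference in response, 1 for ku70 against DJ at 40 Gy (0.472%) and 0 for the untreated lines; without the block on those 8 libraries, the counts were 0 for DJ at 40 Gy, 0 for the difference in response and 0 for the untreated lines. No paired analysis was possible for top6a3 and 4 °C because one arm has a single library per line. With 4 residual degrees of freedom in the 40 Gy set, and few reads behind the lowest members, small differences were not detectable.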
